A study of Mus musculus with 2 samples.

Results

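Interleukin-33 (Il33), its receptor chain ST2 (gene Il1rl1) and the accessory chain of that receptor (Il1rap) were taken as the rows with these symbols in both gene tables, 3 of 32285 genes. They were proposed with their levels in these libraries known, so their values are given as a description and without a test. By its title, the study asked whether CCL2 from fibro-adipogenic progenitors (FAPs), which are muscle-resident mesenchymal cells, is needed for monocytes and macrophages to enter injured muscle. One group was mononuclear cells of the quadriceps of WT (wild-type) C57 BL/6J mice, taken 9 h after barium chloride (BaCl2), a myotoxic salt, was injected into that muscle (100 µl at 1.2% w/v). The other was prepared in the same way at 2 h. Both suspensions were cryo-preserved and sequenced as 1 droplet library per time, and ages, sexes and the number of animals per library were not stated. No uninjured muscle was analysed here.

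The 9 h library kept 8147 cells and the 2 h library 4900 cells, with 35127600 and 27598413 unique molecules (UMIs). With 1 library per time, the time after injury and the library cannot be told apart. The libraries shared 20 cell barcodes, 12 of them among the kept cells. Cells were clustered with the 3 genes left out, and each class is called "like" the cell type whose markers it carried. Levels are in CPM, a gene's UMIs over all UMIs of the class, scaled to 1000000. Every interval is at 95% and covers counting error only. An interval treats UMIs as independent, which makes it too narrow for a gene whose UMIs sit in a handful of cells.

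IL-33 is a cytokine of the IL-1 family that is kept in the nucleus of stromal and barrier cells and is released when cells are damaged. It binds ST2, which then pairs with the accessory protein IL1RAP to signal through MYD88 and NF-kB. ST2 is best known on group 2 innate lymphoid cells, regulatory T cells and mast cells, and a short form made from the same gene is secreted and acts as a decoy. In muscle, FAPs are a known source of IL-33, and regulatory T cells that carry ST2 respond to it.

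On mm10, Il33 (ENSMUSG00000024810) lies on the plus strand at chr19:29925114-29960718, Il1rl1 (ENSMUSG00000026069) on the plus strand at chr1:40429570-40465415 and Il1rap (ENSMUSG00000022514) on the plus strand at chr16:26581704-26730117. Il1rap overlaps Gm20319 on the other strand. The 5 annotated Il1rl1 transcripts end at 40441407, 40446723, 40448148, 40465396 and 40465415. The counts pool these ends, so the secreted and the membrane form were not separated.

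The windows around the RefSeq starts of Il33 and Il1rl1 are shown because these were the genes far higher at 9 h. Each holds 250 bases before and 50 bases after the start, from RefSeq on GRCm38.p6, plus strand. Both genes have 2 listed starts, 20677 bases apart in Il33 and 10059 bases apart in Il1rl1. In mouse, the upstream Il1rl1 start is known from mast cells and the downstream start from fibroblasts. Capitals mark TATAAA in Il33, and AGATAA (on the minus strand TTATCT) and TGACGT in Il1rl1.
Il33 upstream start, chr19:29924863-29925162: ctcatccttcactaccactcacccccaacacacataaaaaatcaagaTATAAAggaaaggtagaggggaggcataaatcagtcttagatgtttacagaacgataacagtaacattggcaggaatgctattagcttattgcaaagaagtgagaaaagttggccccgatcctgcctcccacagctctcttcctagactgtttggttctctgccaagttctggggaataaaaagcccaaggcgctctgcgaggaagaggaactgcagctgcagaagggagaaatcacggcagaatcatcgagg
Il33 downstream start, chr19:29945540-29945839: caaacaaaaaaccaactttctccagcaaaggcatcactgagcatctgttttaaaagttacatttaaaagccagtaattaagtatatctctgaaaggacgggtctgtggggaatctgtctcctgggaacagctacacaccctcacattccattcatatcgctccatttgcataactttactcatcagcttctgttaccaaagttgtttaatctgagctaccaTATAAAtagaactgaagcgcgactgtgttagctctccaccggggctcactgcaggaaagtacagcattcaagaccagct
Il1rl1 upstream start, chr1:40429320-40429619: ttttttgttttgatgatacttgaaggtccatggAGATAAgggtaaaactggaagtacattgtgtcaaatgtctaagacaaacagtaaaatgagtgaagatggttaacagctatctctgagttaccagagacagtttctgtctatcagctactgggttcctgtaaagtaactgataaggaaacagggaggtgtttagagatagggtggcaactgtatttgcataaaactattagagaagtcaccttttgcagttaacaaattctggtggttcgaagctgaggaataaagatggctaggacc
Il1rl1 downstream start, chr1:40439379-40439678: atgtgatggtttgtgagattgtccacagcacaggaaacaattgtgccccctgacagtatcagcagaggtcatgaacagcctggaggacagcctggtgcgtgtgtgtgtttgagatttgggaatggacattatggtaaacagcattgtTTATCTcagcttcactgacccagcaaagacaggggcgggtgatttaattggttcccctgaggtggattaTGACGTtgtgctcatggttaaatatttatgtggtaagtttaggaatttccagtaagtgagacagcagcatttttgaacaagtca
Each motif was searched on both strands, and no match overlapped another. TATAAA, the core promoter element, stood 203 bases before the upstream and 29 bases before the downstream Il33 start, and 13.6% of 32851 mouse promoter windows hold it. AGATAA, the letters bound by GATA factors, stood 217 bases before the upstream Il1rl1 start and 103 bases before the downstream one (11.2% of windows). TGACGT, the core of the cyclic AMP response element, stood 34 bases before the downstream Il1rl1 start (7.51% of windows). The AP-1 letters TGANTCA (7.81% of windows) and the STAT letters TTCNNNGAA (8.30%) had no match in these windows or in that of Il1rap. The same held for the NF-kB letters GGRRNNYYCC (11.2%), where R is A or G, Y is C or T and N is any base. Looser NF-kB-like letters, such as the ggaatttcc in the downstream Il1rl1 window, were not searched. The reads of this kit lie at the 3′ end and do not show which start was used.

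Il33 was chiefly found in FAP-like cells at both times, and over all of them its level was higher at 9 h. FAP-like cells carried Il33 at 2005 CPM at 9 h (38909 UMIs in 2367 cells, exact Poisson interval 1985 to 2025) and at 251.4 CPM at 2 h (4063 UMIs in 2016 cells, 243.7 to 259.2), 7.98-fold higher at 9 h (exact conditional interval 7.72 to 8.24). They held 95.4% of the Il33 UMIs of the library at 9 h and 94.7% at 2 h. With each cell thinned to 1000 UMIs, an Il33 UMI was found in 52.0% of FAP-like cells at 9 h (49.9 to 54.0%) and 13.4% at 2 h (11.9 to 14.9%). The unthinned shares were 72.2% and 40.4%, at median depths of 8212 and 7950.5 UMIs per cell. Neutrophil-like cells, taken as a class without Il33, had it in 1.98% of thinned cells at 9 h and 0.326% at 2 h, at median depths of 1658.5 and 2013 UMIs. Both shares in FAP-like cells were far above this background.

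The ratio compares FAP-like cells that mostly lay in different clusters at the 2 times. Clusters 2, 10 and 13 held 1614, 472 and 232 cells at 9 h and 8, 0 and 4 at 2 h, and clusters 3 and 7 held 32 and 17 cells at 9 h and 1420 and 584 at 2 h. Within the clusters typical of 2 h, Il33 was lower at 9 h, on few cells. Cluster 3 had 123.9 CPM at 9 h (16 UMIs) and 246.7 CPM at 2 h, a ratio of 0.502 (0.287 to 0.817), and cluster 7 had 122.03 CPM at 9 h (14 UMIs) and 259.4 CPM at 2 h, a ratio of 0.470 (0.256 to 0.792). Within cluster 2 Il33 was higher at 9 h, at 2371 CPM against 681.6 CPM in its 8 cells of 2 h (16 UMIs), a ratio of 3.48 (2.14 to 6.09). In cluster 13 the interval held 1. All 15 FAP markers were found in at least 10% of FAP-like cells at each time, summing to 27493 CPM at 9 h and 66861 CPM at 2 h. Clusters 2 and 10 had no FAP marker among their 10 leading genes. Without them 281 FAP-like cells were left at 9 h and 2008 at 2 h, and the ratios were 5.003 for Il33, 57.8 for Il1rl1 and 0.631 for Il1rap. In FAP-like cells the 9 neutrophil markers summed to 2155 CPM at 9 h and 1499 CPM at 2 h, with 0 of them at 0 at either time, and their part in the differences between the times was not tested. Over all genes measured in FAP-like cells (at least 100 UMIs over both libraries), 15.6% were at least 2-fold higher at 9 h with an interval that left out 1, and 20.7% were lower in the same way. Of the 3 genes, Il33 and Il1rl1 were among the higher and none was among the lower. This share is a description, since the genes were chosen on these values.

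Tenocyte-like cells, the tendon fibroblasts, were the only other class of at least 50 cells above 300 CPM of Il33. They had 1482 CPM at 9 h (61 cells, 1374 to 1597) and 94.97 CPM at 2 h (80 cells, 74.3 to 119.6), 15.6-fold higher at 9 h (12.2 to 20.2). The level in FAP-like cells was 1.35 times that in tenocyte-like cells at 9 h (1.25 to 1.46) and 2.65 times at 2 h (2.10 to 3.39). FAP-like cells thus stood first in the order at each time. Tenocytes make Dcn themselves, so the estimate of FAP RNA used below was not read there.

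In the other classes of at least 50 cells Il33 was low, and at 9 h it lay near or below the level that stray FAP RNA would bring. Endothelial-like cells had 224.4 CPM at 9 h and 10.4 CPM at 2 h. If their Dcn, the abundant FAP proteoglycan transcript, came with FAP RNA, the same RNA would bring 253.7 CPM of Il33 at 9 h and 4.68 CPM at 2 h. For monocyte-like cells this estimate was 125.1 CPM at 9 h, against 125.7 CPM counted there. At 2 h monocyte-like cells had 80 Il33 UMIs, of which 77 were in 1 cell. Dendritic-like cells had 72.4 CPM at 9 h, under the estimate of 159.8 CPM, and 0 UMIs at 2 h, where 3 UMIs would be 2.26 CPM. At 9 h the levels of resident macrophage-like (87.9 CPM), satellite-like (83.3 CPM) and dendritic-like cells were not set apart from one another, step by step in the order, by their intervals. Smaller classes were higher on few cells. T or NK-like cells (37 at 9 h) had 526.7 CPM at 9 h, 68 of the 82 UMIs in 1 cell, and pericyte or smooth muscle-like cells (34 at 9 h) had 429.5 CPM, from 4 cells. The part of FAP RNA in these levels was not tested.

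By the rule used for FAP-like cells, no measured member was lower in any class. In tenocyte-like cells 2 of 2 measured members, Il33 and Il1rl1, were higher, where 17.2% of all measured genes were higher and 23.7% lower. In neutrophil-like cells Il33 and Il1rl1 were the 2 higher ones of 3 (8.26% of genes higher, 10.1% lower), both at levels under 20 CPM. Il33 was the 1 higher member of 2 in endothelial-like (9.58% and 9.76%), monocyte-like (6.18% and 8.37%) and resident macrophage-like cells (6.08% and 10.5%). At resolution 2, 356 of the 371 monocyte-like cells of 9 h formed a cluster with 13 of the class's 284 Il33 UMIs. Il33 there was at 6.32 CPM at 9 h and 59.5 CPM at 2 h, so the call rested on the few other cells. Of the 363 Il33 UMIs in endothelial-like cells at 9 h, a cluster of 287 such cells held 14 and another of 50 held 0. A further 203 lay in a cluster with 21 FAP-like cells. In dendritic-like and satellite-like cells none of the members reached 100 UMIs.

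**Figure D1:**
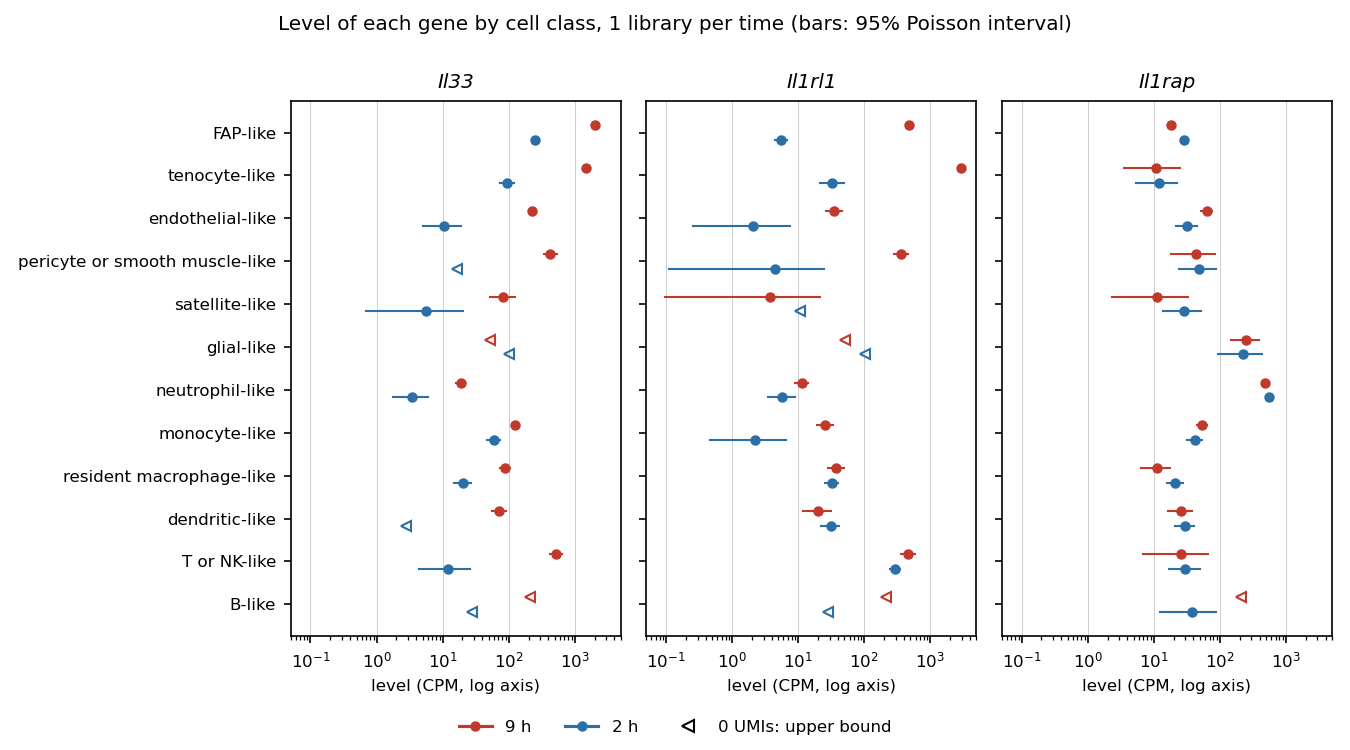
Level of each gene (CPM, log axis) in 12 cell classes at 9 h (red) and 2 h (blue), 1 library per time. Bars are 95% Poisson intervals and open triangles give the upper bound where no UMI was found. Il33 and Il1rl1 lie highest in FAP-like and tenocyte-like cells at 9 h, and Il1rap in neutrophil-like and glial-like cells.

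Il1rl1, the ST2 gene, was nearly absent from FAP-like cells at 2 h and was carried by a minority of them in large amounts at 9 h. FAP-like cells had 478.7 CPM at 9 h (9289 UMIs, 469.0 to 488.5) and 5.57 CPM at 2 h (90 UMIs, 4.48 to 6.84), 86.0-fold higher at 9 h (69.9 to 107). The 2 h level rested on few cells. An Il1rl1 UMI was found in 14 of 2016 FAP-like cells at 2 h, and 10 of them held 86 of the 90 UMIs. Without the 10 cells with the most Il1rl1 at each time, 7486 UMIs were left at 9 h and 4 at 2 h, which gave a ratio of 1557. The mean of each cell's own CPM gave a ratio of 148. Over the 10 alternatives run the ratio lay between 57.8 and 1557, always higher at 9 h. Within cluster 3 it was 7.60 (2.96 to 16.4), from 7 UMIs at 9 h and 80 at 2 h, and cluster 7 had 0 and 10 UMIs. At 1000 UMIs per cell, Il1rl1 was seen in 9.63% of FAP-like cells at 9 h (8.46 to 10.9%) and in 0.301% at 2 h (0.111 to 0.654%). Neutrophil-like cells, the background class, had it in 1.12% of cells at 9 h and 0.521% at 2 h. The 2 h share in FAP-like cells did not exceed this background.

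The class with the highest Il1rl1 level at 9 h was the tenocyte-like one. It carried 2883 CPM at 9 h (1340 UMIs, 2731 to 3041) and 32.98 CPM at 2 h (25 UMIs, 21.3 to 48.7), 87.4-fold higher (58.96 to 135.6). The 9 h level was 6.02 times that of FAP-like cells (5.68 to 6.38). The UMIs lay in 23 of 61 tenocyte-like cells at 9 h and in 5 of 80 at 2 h, 18 of the 25 in 1 cell. At resolution 2, 38 FAP-like and 15 tenocyte-like cells of the 9 h library came together in a cluster of 53 cells led by Gldn, Sult1e1, Ltbp2 and Il1rl1. This cluster carried 2782 CPM of Il1rl1 and 12.99% of the Il1rl1 UMIs of the library, with a UMI in 43.4% of its cells. The tenocyte-like cluster of that resolution, 46 of these tenocyte-like cells and 1 FAP-like cell, had 1315 CPM at 9 h. The cluster led by Gldn was picked after its values were seen, and the ratio in FAP-like cells without its cells was 82.7.

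At 2 h, lymphoid cells were the main carriers of Il1rl1. T or NK-like cells had 462.4 CPM at 9 h (72 UMIs in 37 cells, 361.8 to 582.4) and 292.8 CPM at 2 h (146 UMIs in 103 cells, 247.2 to 344.3), and they held 0.652% of the library's Il1rl1 UMIs at 9 h and 36.3% at 2 h. FAP RNA, by Dcn, would bring 145.4 CPM at 9 h and 0.747 CPM at 2 h. At resolution 2, 71 of the 72 UMIs at 9 h and 142 of the 146 at 2 h lay in a cluster of 27 cells at 9 h and 29 cells at 2 h, led by Calca, Gata3, Il2ra, Tnfrsf18 and Il5. This cluster, chosen after its values were seen, met no marker list and stayed unnamed. Of 13 genes listed for group 2 innate lymphoid cells, 10 were in at least 10% of its cells at 9 h and 12 at 2 h, among them the transcription factor Gata3 (96.3% and 100% of cells) and the cytokine Il5 (51.9% and 34.5%). Il1rl1 stood there at 591.3 CPM at 9 h and 808.9 CPM at 2 h, which was 35.3% of the library's Il1rl1 UMIs at 2 h in 0.592% of its cells. Of the 23 T or NK-like cells with Il1rl1 at 9 h, 0 had the T cell marker Cd3e, and at 2 h 2 of 31 had it. The regulatory T cell factor Foxp3 was in 0 of 23 such cells at 9 h and in 1 of 31 at 2 h.

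Resident macrophage-like and dendritic-like cells carried Il1rl1 at low levels whose ratio intervals between the times held 1. Resident macrophage-like cells had 37.8 CPM at 9 h (58 UMIs, 28.7 to 48.8) and 32.2 CPM at 2 h (74 UMIs, 25.3 to 40.5), 1.17 times as much at 9 h (0.816 to 1.67), and held 18.4% of the UMIs at 2 h. Dendritic-like cells had 20.04 CPM at 9 h (18 UMIs) and 30.9 CPM at 2 h (41 UMIs), which gave 0.649 (0.351 to 1.155). The Dcn estimate of FAP RNA was 21.3 CPM at 9 h and 0.497 CPM at 2 h in resident macrophage-like cells, and 38.1 CPM at 9 h and 0.0169 CPM at 2 h in dendritic-like cells. Its part in these levels was not tested. Mast cells and basophils, which also use ST2, were few. At least 3 of their markers were found in 7 cells at 9 h and 1 cell at 2 h, with 1 Il1rl1 UMI in all at 9 h and 0 at 2 h, and eosinophil markers met this in 0 cells at either time. In pericyte or smooth muscle-like cells all 67 Il1rl1 UMIs at 9 h were in 1 cell. Endothelial-like cells had 57 UMIs at 9 h, 50 of them in 1 cell, and 2 UMIs at 2 h.

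**Figure D2:**
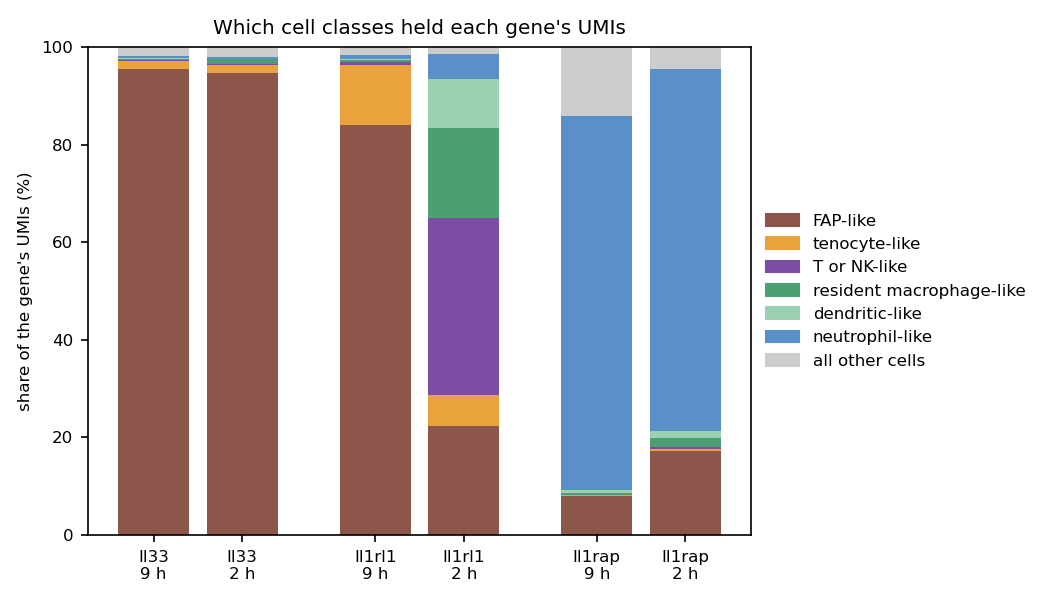
Share of each gene's UMIs (%) held by each cell class at 9 h and at 2 h, 1 library per time. FAP-like cells held 95.4% and 94.7% of Il33, 84.1% and 22.4% of Il1rl1, and 8.01% and 17.2% of Il1rap.

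Il1rap, the chain shared with the IL-1 and IL-36 receptors, was chiefly a neutrophil transcript. Neutrophil-like cells had 476.9 CPM at 9 h (3382 UMIs in 3676 cells, 460.9 to 493.2) and 563.5 CPM at 2 h (1975 UMIs in 1630 cells, 538.9 to 588.9), or 0.846 times as much at 9 h (0.8004 to 0.895). They held 76.8% of the gene's UMIs at 9 h and 74.1% at 2 h, and a UMI was found in 35.7% of thinned cells at 9 h and 39.5% at 2 h. An unnamed cluster of 618 cells at 9 h, which scored as neutrophil but whose leading genes were Ccrl2, Mreg and F10, had 316.4 CPM and 8.33% of the UMIs. Glial-like cells, few as they were, had 250.7 CPM at 9 h (18 UMIs in 18 cells, 148.6 to 396.3) and 221.2 CPM at 2 h (8 UMIs in 11 cells, 95.5 to 435.8).

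In FAP-like cells Il1rap was low at both times and lower at 9 h. It stood at 18.2 CPM at 9 h (353 UMIs, 16.3 to 20.2) and at 28.4 CPM at 2 h (459 UMIs, 25.9 to 31.1). The ratio was 0.641 (0.556 to 0.738) and did not reach 2-fold. Thinned cells with a UMI were 1.86% at 9 h and 3.01% at 2 h, against 1.29% and 1.58% of resident macrophage-like cells. Neutrophil RNA, gauged by S100a8 at 1.73% of its level in neutrophil-like cells at 9 h and 0.942% at 2 h, would bring 8.26 CPM of Il1rap to FAP-like cells at 9 h and 5.31 CPM at 2 h. Its part in the difference was not tested. In endothelial-like cells, at 63.7 CPM at 9 h and 32.3 CPM at 2 h, the same estimate was 53.7 and 24.5 CPM. In monocyte-like cells (54.4 and 41.6 CPM) it was 25.9 and 12.6 CPM. Resident macrophage-like cells had 11.1 CPM at 9 h and 21.4 CPM at 2 h (ratio 0.518, interval 0.280 to 0.916). At 2 h no level from monocyte-like down to tenocyte-like cells was set apart from its neighbour in the order by its interval.

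The UMIs of Il33 were spread over many FAP-like cells and those of Il1rl1 over few. Of 2191 FAP-like cells thinned to 2000 UMIs at 9 h, 1929 had no Il1rl1 UMI, 66 had 1, 63 had 2 to 4, 60 had 5 to 9 and 73 had 10 or more. Those 73 cells, 3.33% of the total, held 66.0% of the Il1rl1 UMIs. If the UMIs had been spread evenly by counting chance alone, 58.6% of cells would have had one, against 11.96% counted. For Il33 at 9 h, 1345 of 2191 cells had a UMI (61.4%, against 97.7% under even spreading) and 274 had 10 or more. At 2 h 10 of 1921 cells had 10 or more Il33 UMIs and 0 had 10 or more Il1rl1 UMIs. At this depth Il1rap showed no such crowding, with 3.47% of cells counted at 9 h against 3.81% under even spreading, and 5.36% against 5.47% at 2 h. The 9 h shares rested on 85 UMIs. At resolution 2, an unnamed 9 h cluster led by Csta2 and Cxcl5 held 66 FAP-like, 13 monocyte-like and 4 neutrophil-like cells. It scored highest for neutrophil markers and had Il1rap at 113.1 CPM, in 56.6% of its cells. FAP-like clusters of that resolution had 11.6 to 16.6 CPM at 9 h. The part of neutrophil RNA in the Csta2 cluster was not tested. The most Il1rl1 UMIs in 1 FAP-like cell, unthinned, was 337 at 9 h and 32 at 2 h.

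**Figure D3:**
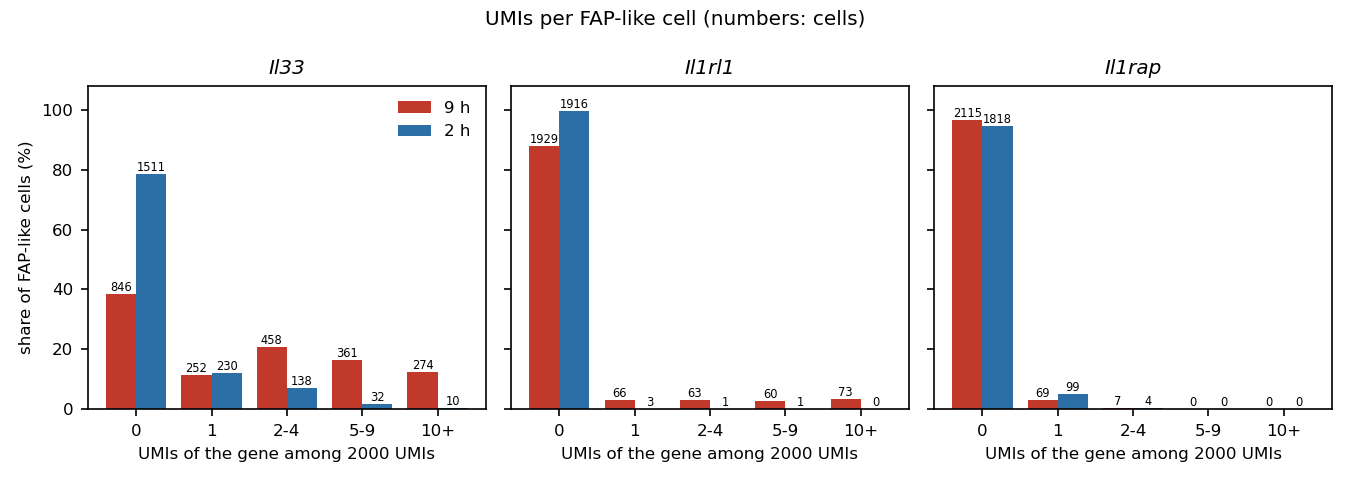
Share of FAP-like cells (%) by the number of UMIs of each gene after thinning to 2000 UMIs, at 9 h (red, 2191 cells) and 2 h (blue, 1921 cells). Numbers above the bars count cells. For Il1rl1 at 9 h, 1929 cells had none and 73 had 10 or more.

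Within FAP-like cells at 9 h, Il33 and Il1rl1 were both highest in cluster 2, whose leading genes were Cxcl5, Ccl2 and Hmga2. Cluster 2 (1614 cells) carried Il33 at 2371 CPM, cluster 13 (232 cells, led by Krtdap and Dmkn and holding Pi16, the marker of adventitial FAPs) at 1383 CPM and cluster 10 (472 cells, led by the acute-phase genes Saa1 and Saa2) at 1130 CPM. The order was cluster 2 over 13 by 1.71 (1.65 to 1.78) and cluster 13 over 10 by 1.22 (1.17 to 1.28). Il1rl1 followed the same order with wider steps, at 628.8 CPM in cluster 2, 355.6 CPM in cluster 13 and 17.9 CPM in cluster 10. Cluster 13 exceeded cluster 10 by 19.8 (15.3 to 26.0). Of 452 thinned cells of cluster 10, 5 had an Il1rl1 UMI and 193 had Il33. Il1rap stood at 18.2, 16.3 and 18.2 CPM in clusters 2, 13 and 10, and each of the 3 intervals of the ratios held 1.

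The main FAP-like clusters of 2 h differed little in Il33. Cluster 7 (584 cells, led by Sema3c and Pi16) had 259.4 CPM and cluster 3 (1420 cells, led by Col15a1 and Angptl1) 246.7 CPM, a ratio of 1.05 (0.983 to 1.12). Il1rl1 was at 2.03 CPM in cluster 7 and 7.13 CPM in cluster 3, from 10 and 80 UMIs. Il1rap was 1.38 times as high in cluster 7 (1.14 to 1.67), at 35.2 CPM against 25.5 CPM in cluster 3. At resolution 2, 62 of the 90 Il1rl1 UMIs in FAP-like cells at 2 h lay in a cluster of 326 cells led by Gdf10 and Sfrp1, in 1.23% of its cells.

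**Figure D4:**
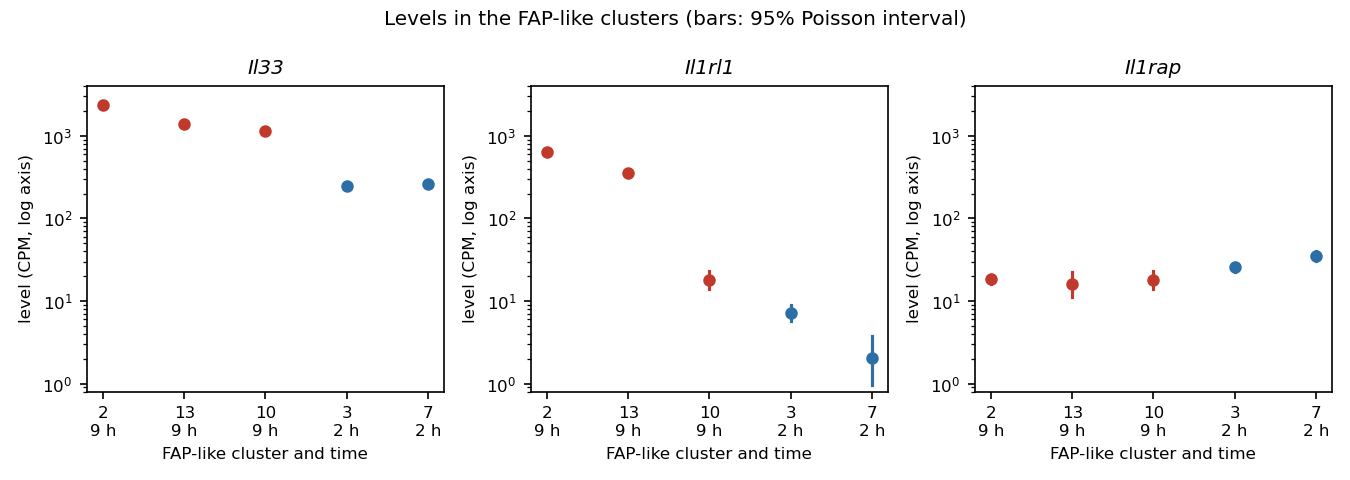
Level of each gene (CPM, log axis) in the FAP-like clusters with at least 50 cells at that time, 3 at 9 h (red) and 2 at 2 h (blue). Bars are 95% Poisson intervals. Il1rl1 was at 628.8 CPM in cluster 2 and 17.9 CPM in cluster 10 at 9 h, and Il1rap between 16.3 and 18.2 CPM in all 3.

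A split by Pi16, and by Cxcl5 where Pi16 was absent, without clusters, gave the highest levels to the cells without Pi16 that were rich in Cxcl5. At 9 h, 803 FAP-like cells had no Pi16 UMI and at least 10 UMIs of the neutrophil chemokine Cxcl5 among 2000. They carried 2882 CPM of Il33 and 704.2 CPM of Il1rl1. The 541 cells with Pi16, which were not split by Cxcl5, had 1308 and 344.7 CPM. The 847 cells with no Pi16 UMI and under 10 Cxcl5 UMIs had 1326 and 253.2 CPM. Il1rl1 was found in 18.7% (16.0 to 21.6%), 10.9% (8.41 to 13.8%) and 6.26% (4.72 to 8.11%) of these cells. Cells without Pi16 near the Cxcl5 limit, with 7 to 12 UMIs, numbered 85. At 2 h 8 cells without Pi16 passed the Cxcl5 limit, the 682 cells with Pi16 had 281.5 CPM of Il33 and the 1231 others 210.8 CPM.

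At 9 h and 2000 UMIs per cell, ligand and receptor were found in the same FAP-like cells slightly more often than their separate shares gave. The interval of the joint share held the product of those shares. Within cluster 2 alone they were found together about as often as the product. At 9 h, 183 of 2191 cells had both Il33 and Il1rl1, 8.35% (7.23 to 9.59%), where the product of the shares was 7.34%, a ratio of 1.14. Of the 262 cells with Il1rl1, 69.8% (63.9 to 75.3%) had Il33, and of the 1929 cells without it 60.2% (58.0 to 62.4%). Within cluster 2 alone the ratio to the product was 1.02, with 70.3% and 68.6%. Over all FAP-like cells at 4000 UMIs the ratio was 1.05. Il33 was then in 73.3% (67.2 to 78.7%) of cells with Il1rl1 and 69.3% (67.1 to 71.5%) of those without, intervals that overlap. The 2 receptor chains were seen together in 8 cells at 2000 UMIs, 0.365% (0.158 to 0.718%), where the product was 0.415%. Their joint share was also under the product at 1000 UMIs (0.130% against 0.179%). It was over the product at 4000 UMIs (0.708%, 0.387 to 1.18%, against 0.578%). All 3 genes were found in 4 of 2191 cells at 9 h and in 0 of 1921 cells at 2 h. At 2000 UMIs per cell this allows up to 0.192% of cells with a UMI of each and does not limit the share that express them. At 2 h 2 cells had both Il33 and Il1rl1. Il1rap had a UMI in 3.47% of the 9 h cells, so at this depth most cells that carry it would show none.

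FAP-like cells with Il1rl1 at 9 h had more Mmp3, Tnc and Hmga2 and less Dcn than those without it. Mmp3, a matrix protease, was at 1405 CPM in the 262 Il1rl1-positive cells and 398.4 CPM in the 1929 negative ones, 3.53-fold higher (3.22 to 3.85). Tnc, the matrix glycoprotein tenascin C, was 3.41-fold higher, the chromatin protein gene Hmga2 2.68-fold, the metallothionein Mt4 2.58-fold, the cytokine Il6 2.13-fold, the Wnt agonist Rspo3 2.25-fold, the complement gene C4b 2.24-fold and the chemokine Cxcl3 1.95-fold. The transporters Slc4a4 and Slco2a1 completed the list, at 2.05-fold and 1.89-fold. Within cluster 2 each of these 10 ratios was between 1.37 and 2.85 with an interval above 1. These genes were picked by their ratio in the same cells, so the ratios are a description.

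The genes lower in Il1rl1-positive cells included leading genes of cluster 10 (Saa1, Saa2 and Scn7a). Saa1 was at 28.6 CPM in positive and 650.3 CPM in negative cells, 22.7-fold lower, and Saa2, the interferon-induced Iigp1 and Gbp2, Xdh (xanthine dehydrogenase), the sodium channel Scn7a, the glucocorticoid-induced Tsc22d3, Txnip, Cxcl13 and Cyp1b1 were between 3.08-fold and 21.1-fold lower. Within cluster 2 the intervals of Saa2, Iigp1, Scn7a, Tsc22d3, Txnip and Gbp2 held 1, while Xdh (0.319), Cxcl13 (0.298), Saa1 (0.476) and Cyp1b1 (0.655) kept intervals under 1. Dcn was at 5926 CPM in positive and 8670 CPM in negative cells, a ratio of 0.683 (0.659 to 0.709), and the 15 FAP markers summed to 21462 and 29138 CPM (0.737). The summed markers of parenchymal FAPs were at 4124 CPM in positive and 7964 CPM in negative cells, and those of adventitial FAPs at 2216 and 2191 CPM. Tenocyte markers summed to 122.1 CPM in positive and 108.1 CPM in negative cells, a ratio of 1.13 (0.855 to 1.47), with 3 of 8 at 0 in the positive cells. The median depth before thinning was 9198 UMIs in positive and 8392 UMIs in negative cells. Markers of endothelial (64.9 and 24.1 CPM) and dendritic cells (55.3 and 17.6 CPM) were higher in the positive cells, with 1 of 10 and 5 of 10 of them at 0 there, and their part in the result was not tested.

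**Figure D5:**
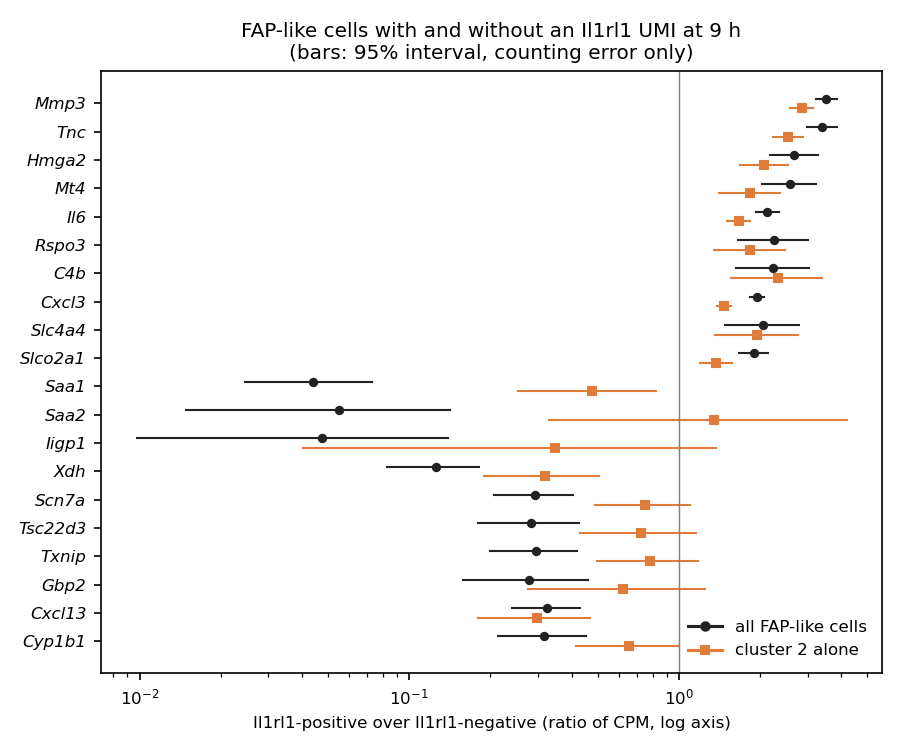
Ratio of levels (log axis) between FAP-like cells with and without an Il1rl1 UMI at 9 h, for the 10 genes most above and the 10 most below, in all FAP-like cells (black) and in cluster 2 alone (orange). Bars are 95% intervals. Mmp3 was 3.53-fold higher over all FAP-like cells and 2.85-fold higher in cluster 2, and Saa2 and Iigp1 had intervals that held 1 in cluster 2.

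FAP-like cells with Il33 at 9 h (1345) had more Mt4 and Tnc than those without it (846), as those with Il1rl1 did. The retinol dehydrogenase Rdh10 was 2.37-fold higher, Mt4 2.34-fold, Inhba (activin A) 2.24-fold, Cxcl5 2.10-fold, Tnc 1.98-fold and Ptx3, a soluble pattern receptor, 1.77-fold. Cxcl5 stood at 14099 CPM in the positive and 6706 CPM in the negative cells. Chst11, Col8a1, Csgalnact1 and Dio2 were between 1.83-fold and 2.13-fold higher. The lowest were Iigp1 (4.02-fold lower), Txnip (3.30-fold) and Tsc22d3 (2.90-fold), followed by Saa2, Galnt15, Scn7a, Lvrn, Xdh, Slfn5 and Samhd1. Within cluster 2 each of the 10 higher genes kept an interval above 1, and of the 10 lower ones Txnip, Tsc22d3 and Galnt15 kept an interval under 1. Cluster 2 gave 1022 of the positive and 463 of the negative cells in which these genes were picked, so the ratios are a description. Median depth was 9004 UMIs in the positive and 7579 UMIs in the negative cells. FAP markers summed to 25176 CPM in positive and 33060 CPM in negative cells (0.762), and neutrophil markers to 2138 and 2625 CPM (0.814, 0.783 to 0.847), with 0 of 15 and 0 of 9 at 0 in the positive cells. Endothelial markers summed to 34.2 CPM in positive and 20.7 CPM in negative cells (1.65, 1.11 to 2.52), with 0 of 10 at 0, and tenocyte markers to 118.6 and 95.7 CPM (1.24, 1.02 to 1.51), with 3 of 8 at 0. Erythroid markers were at 9.67 and 0 CPM, with 3 of 6 at 0. The part of these markers in the result was not tested.

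None of the listed adaptors and kinases downstream of the receptor reached 2-fold in FAP-like cells. Of these 20 genes, all measured, 0 were at least 2-fold higher at 9 h and 0 lower. Their median log2 ratio (10 CPM added to each level) was 0.01, beside 0.00 over all 10455 measured genes. Counts in these lists stand beside 15.6% of all measured genes higher and 20.7% lower. Myd88, the adaptor of the receptor, was at 91.5 CPM at 9 h and 94.8 CPM at 2 h (ratio 0.966, interval 0.901 to 1.03). Irak3, an inhibitory kinase, was at 292.7 and 246.1 CPM (1.19), and Mapk9 came nearest to the limit at 18.7 and 36.9 CPM (0.505). Of 11 NF-kB subunits and inhibitors (median log2 ratio 0.14), 1 was higher, the inhibitor Nfkbib, at 61.2 CPM at 9 h and 20.9 CPM at 2 h (2.94-fold). Nfkbia, the inhibitor induced by NF-kB itself, was at 921.2 and 503.7 CPM (1.83-fold) and did not reach 2-fold.

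Among 16 cytokines that IL-33 is known to induce, 8 were measured in FAP-like cells, and 6 were at least 2-fold higher and 1 lower at 9 h, with a median log2 ratio of 1.23, where 15.6% of all measured genes were higher and 20.7% lower. Ccl2 was at 8919 CPM at 9 h and 655.9 CPM at 2 h (13.6-fold), Csf2 at 26.4 and 2.29 CPM (11.5-fold), Csf3 at 9.84 and 0.681 CPM (14.5-fold), Cxcl2 at 3539 and 369.6 CPM (9.58-fold), Cxcl1 at 5367 and 1388 CPM (3.87-fold) and Tnf at 10.2 and 2.85 CPM (3.57-fold). Il6 was at 500.7 and 338.7 CPM (1.48-fold) and the eosinophil chemokine Ccl11 at 733.1 and 2088 CPM (2.85-fold lower). Csf2 (513 UMIs at 9 h and 37 at 2 h), Csf3 (191 and 11) and Tnf (197 and 46) passed as measured through their 9 h UMIs. The count of 6 and the median thus lean in part on genes let in by being high at 9 h. Without the filter on low counts, 8 of the 16 listed genes were higher and 1 lower. The S100a8 estimate of neutrophil RNA was 7.52 CPM for Tnf and 945.1 CPM for Cxcl2 at 9 h, and 1.45 and 219.1 CPM at 2 h. Other stimuli are known to induce these genes too.

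Other IL-1 family genes had smaller ratios than Il1rl1. The counts that follow stand beside 15.6% of measured genes higher and 20.7% lower. Of 14 listed ligands 4 were measured, with a median log2 ratio of 0.93. Il1b, Il1rn (the IL-1 receptor antagonist) and Il1f9 (IL-36 gamma) were higher, and Il18 was lower at 4.23 CPM at 9 h and 31.1 CPM at 2 h (7.35-fold lower). Il1b was at 193.3 CPM at 9 h and 96.1 CPM at 2 h, where the S100a8 estimate of neutrophil RNA was 173.1 and 79.3 CPM. For Il1rn (68.6 and 12.7 CPM) the estimate was 52.7 and 8.90 CPM, and for Il1f9 (19.2 and 5.32 CPM) it was 17.01 and 5.27 CPM. The part of neutrophil RNA in these ratios was not tested. Of 6 measured receptors 1 was higher and 1 lower, with a median log2 ratio of -0.08. Of 6 other measured alarmins (median 0.09), 0 were higher and 2 lower, Hspa1a (872.9 and 2442 CPM) and Anxa1 (253.2 and 797.8 CPM). The 6 include the neutrophil markers S100a8 (931.0 and 589.5 CPM) and S100a9 (855.5 and 617.5 CPM). The part of neutrophil RNA in them was not tested. Hmgb1, a nuclear alarmin like IL-33, was at 402.0 and 286.8 CPM, a ratio of 1.40. Of the FAP subset markers, 6 of 8 adventitial (median -1.62) and 5 of 9 parenchymal ones (median -1.26) were lower and none was higher, beside the 20.7% of all measured genes that were lower.

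Lists of the cells that are known to carry ST2 had few measured genes in FAP-like cells. Over all measured genes 15.6% were higher at 9 h and 20.7% lower, and the counts below are too small to be set against these shares. Of 13 genes of group 2 innate lymphoid cells 2 were measured, Rora and Thy1, which FAPs express as well, and both were lower. Of 10 regulatory T cell genes 1 was measured, Ikzf2, and it was lower, at 3.25 CPM at 9 h and 11.1 CPM at 2 h. Of 11 mast cell and basophil genes 1 was measured, Hdc, at 69.7 and 57.7 CPM (1.21). Hdc was also among the leading genes of a neutrophil-like cluster at resolution 2, and the part of neutrophil RNA in its level was not tested. None of 8 eosinophil genes was measured.

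The neighbours of Il1rl1 on chromosome 1, a row of IL-1 receptor genes on the same strand, did not share its ratio in FAP-like cells. Il1rl2, the IL-36 receptor and next gene upstream, was at 91.0 CPM at 9 h and 112.4 CPM at 2 h (0.810, 0.758 to 0.865). Il1r1, the IL-1 receptor, was at 341.3 and 367.6 CPM (0.928), and Il1r2, a decoy receptor, at 122.4 and 115.4 CPM (1.06, 0.998 to 1.13). Downstream, Il18r1 starts 137 bases after the end of Il1rl1 and was at 1.60 CPM at 9 h and 5.51 CPM at 2 h (3.45-fold lower). Il18rap, the second chain of the IL-18 receptor, was at 7.73 and 3.40 CPM (2.27-fold higher), where neutrophil RNA would bring 5.76 and 2.60 CPM. Map4k4, at the upstream edge, was at 378.9 and 244.0 CPM (1.55).

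Across 17 groups of at least 50 cells (a class in a library), 3919 genes were ranked by Pearson correlation of log2 levels with each of the 3 genes. The groups share libraries and depth, so the coefficients are a description. Among the genes most like Il33 were Bcat1 (0.93), Prg4 (0.92), Fst (0.90), Serpina3n (0.89), Ptx3 (0.87), Mcfd2 (0.86) and Znhit6 (0.86). Those most like Il1rl1 were Mt4 (0.84), Mmp3 (0.82), Sult1e1 (0.82), Hars (0.80), Dio3 (0.78), Slc39a8 (0.77), Acsl4 (0.76) and Itgav (0.75). In FAP-like cells Mt4 had 102.1 CPM at 9 h and 1.98 CPM at 2 h. Those most like Il1rap were Il1r2 (0.97), Stx11 (0.96), Ppp1r3b (0.96), Slfn4 (0.95), Mirt2 (0.95), H2-Q10 (0.95), Ptgs2os2 (0.95) and Cxcr2 (0.95), each highest in neutrophil-like cells. Between the 3 genes, the coefficient was 0.62 for Il33 with Il1rl1, -0.40 for Il33 with Il1rap and -0.33 for Il1rl1 with Il1rap.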

How the data were processed

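UMI counts per gene and cell barcode, as deposited, were made by the authors with Cell Ranger 5.0.0 on mm10 from 10x 3′ v3.1 libraries that targeted 5000 cells, per the submitters' processing notes and the labels. Annotation release and aligner settings: not given in the sources used here. As deposited, the tables held 36042307 UMIs in 8790 barcodes at 9 h, and 28635763 UMIs in 5729 barcodes at 2 h.

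Barcodes under 200 genes or 500 UMIs (264 at 9 h, 513 at 2 h) and then over 20% mitochondrial UMIs (379 and 316) were removed. Median depth of the kept cells was 2327 UMIs at 9 h and 4519 at 2 h. Libraries were clustered together without batch correction in Scanpy 1.11.5 (UMIs scaled to 10000 per cell, 2000 variable genes without the 3 genes of interest, 30 principal components, 15 neighbours, Leiden resolution 1). A cluster took the name of a marker list when at least 3 markers were in at least 10% of its cells, its score was 1.5 times the next and no other list had more genes among its 10 leading genes. Scn7a was left out of the glial list because FAP-like cells carried it in earlier results of these data. Scrublet marked 0 cells at 9 h and 6 at 2 h as doublets, under 0.5%, so its calls were set aside and all kept cells stayed. The alternative left out the 573 and 225 highest doublet scores.

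Levels are summed UMIs as CPM with exact Poisson intervals, ratios have exact conditional binomial intervals, and shares of cells have exact Clopper-Pearson intervals after thinning to 1000 UMIs, or 2000 UMIs where genes were read together in a cell. At 1000 UMIs this left out 52 of 2367 FAP-like cells at 9 h and 24 of 2016 at 2 h. Log2 ratios used a pseudocount of 10 CPM. Zero counts were read against a floor of 3 counts. With 1 library per time no test was made. TMM scaling used edgeR 4.0.16. Ratio and Poisson intervals were tested on simulated Poisson counts, which lack the crowding seen for Il1rl1. Thinning was checked on deposited barcodes, for the UMI total left per cell alone. The 3 genes, the gene lists and the motifs were chosen with earlier results of these data known. Genes named beside them were the 8 highest correlations per gene, the 10 highest and 10 lowest ratios between cells with and without a gene (at least 100 CPM in 1 of the groups), and, of each list, the highest levels or largest ratios. Gene positions were matched by identifier to GENCODE M21 for 32158 of 32285 genes (99.6%). Protein sequences were not used here. 1 of the genes most like Il33 and the list of proteases that cut IL-33 are not reported here.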

Additional observations from a re-analysis of the deposited data

Results flagged for a closer look

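Il1rap moved in opposite directions in different cell classes. Its ratio of 9 h over 2 h was 1.97 in endothelial-like cells, against 0.641 in FAP-like, 0.846 in neutrophil-like and 0.518 in resident macrophage-like cells. The difference between the classes was not tested, since each time had 1 library. In endothelial-like cells neutrophil RNA by S100a8 would bring 53.7 of 63.7 CPM at 9 h and 24.5 of 32.3 CPM at 2 h.

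Barcodes left out of the comparisons carried the 3 genes above the level of 3 counts in the set. Barcodes over 20% mitochondrial UMIs had Il33 at 137 CPM, Il1rl1 at 43.1 CPM and Il1rap at 109 CPM at 9 h (3 counts are 4.62 CPM), and 51.4, 25.7 and 49.6 CPM at 2 h (3 counts are 5.14 CPM). Barcodes under 200 genes or 500 UMIs had Il33 at 26.4 CPM and Il1rl1 at 18.9 CPM at 9 h (3 counts are 11.3 CPM), and Il33 at 11.0 CPM at 2 h (3 counts are 6.62 CPM).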

How the results depend on the processing

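Of the 152 alternative values computed, 107 stayed within counting error (counts of genes within 1.5 times) and 45 did not. A change of direction was looked for only in the 9 h over 2 h ratios in FAP-like cells, and none was found. Ratios within single clusters, where Il33 was lower at 9 h in clusters 3 and 7, are not among the 152. Without FAP-like clusters that lack a FAP marker among their leading genes, the ratio was 5.003 for Il33 and 57.8 for Il1rl1, FAP-like cells held 7.37% of Il33, 6.99% of Il1rl1 and 0.976% of Il1rap UMIs at 9 h, and the shares of cells with Il33 and Il1rl1, and with Il1rl1 and Il1rap, were 6.30% and 0. Without the 10 cells with the most UMIs, the ratio was 8.69 for Il33 and 1557 for Il1rl1, and the UMIs held at 9 h were 95.2%, 81.0% and 6.98%, and 1.27% of Il1rl1 at 2 h. The mean of cells' own CPM gave 148 for Il1rl1. Resolution 2 gave 0.515 for Il1rap and 93.2%, 90.5% and 6.24% of UMIs held at 9 h. Il33 UMIs held at 9 h were 96.3% at a mitochondrial limit of 10% (Il1rl1 85.2%), 96.1% at resolution 0.5 and 96.1% with the 3 genes kept among the variable genes. Without the highest doublet scores, FAP-like cells held 97.4% of Il33 and 6.13% of Il1rap at 9 h, and 97.8% and 13.8% at 2 h. Shares of cells at 2000 UMIs were 61.4%, 11.96% and 3.47% at 9 h for Il33, Il1rl1 and Il1rap, and 21.3% and 5.36% at 2 h for Il33 and Il1rap. Without thinning they were 72.2%, 15.2% and 10.5% at 9 h, and 40.4%, 0.694% and 17.9% at 2 h. At 1000 UMIs the joint shares were 5.75% and 0.130%. Without the filter on low counts 3531 genes were lower, against 2168. The 2 alternatives chosen after seeing the data, without the cluster led by Gldn and with the cluster led by Calca, moved their 5 values by less than counting error. The cause of each move was not tested.

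No paired analysis was possible because each time had 1 library, and for the same reason no replicate could be left out. The ratios compare these libraries, and their spread between animals is not known. The 2 h level of Il1rl1 in FAP-like cells rests on 90 UMIs, 86 of them in 10 cells. TMM scaling gave 8.07, 86.9 and 0.648 for Il33, Il1rl1 and Il1rap.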
